A study of Mus musculus with 6 samples.

Results

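The genes followed here are expressed between the oocyte and the cleavage-stage embryo, and were Dppa3, Calcoco2, Arg2, Khdc3, Nlrp5, Obox6, Ubtfl1 and AF067063. They were chosen by name, and every probe set annotated to 1 of them alone was taken. That gave 9 probe sets of 8 genes, 2 of them for Arg2, out of 45101 probe sets and 18193 genes on the array.

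Mammalian embryos start on RNA and protein stored in the oocyte, and their own genome is first transcribed during the earliest cleavage divisions. Genes needed from the oocyte's store are called maternal-effect genes, and genes switched on in the first divisions are called cleavage-stage or zygotic genome activation genes. Embryonic stem cells, derived from the blastocyst, mostly keep such genes low, although some of them, Dppa3 among them, are also expressed in stem cells.

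Expression was measured on 6 Affymetrix arrays of mouse embryonic stem cells with a mixed 129/B6 background. Polycomb repressive complex 1 silences genes through histone modification, and Rybp and Yaf2 are related proteins found in some of its forms. The cells belong to 3 clones. Clone 3031 has wild-type Yaf2 (Yaf2wt), and clones 3086 and 3087 are labelled both as Yaf2 knockdown (Yaf2kd) and as Yaf2 mutant. Each clone gave 1 array after 24 hours of 4-hydroxytamoxifen at 0.8 µM (OHT+), meant to deplete Rybp, and 1 array without it (OHT-), labelled as wild type for Rybp. The groups are therefore Yaf2wt OHT+ (n = 1), Yaf2wt OHT- (n = 1), Yaf2kd OHT+ (n = 2) and Yaf2kd OHT- (n = 2). Yaf2wt is a single clone, so Yaf2 status and clone cannot be told apart. Among these arrays OHT was given only together with the intended loss of Rybp, so the drug and that loss cannot be told apart either. The labels do not describe the allele that makes Rybp sensitive to OHT. The labels allow for a feeder layer of irradiated fibroblasts or for gelatin, without naming the surface of each sample.

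The deposited values are linear intensity, normalized so that every array has the same distribution with a median of 102. The number of arrays limits the precision. A probe set was called dim in a group where its geometric mean there lay under 106, the 40th percentile of the genes' mean signal. The spread grows at low signal: the median replicate SD (log2) in the Yaf2kd groups was 0.73 for dim probe sets and 0.18 for the others. The replicates of a Yaf2kd group are different clones. The label check held on all arrays for the Yaf2 probe sets, at 276 ± 27.2 in Yaf2kd (SD, n = 4) against 793 ± 33.6 in Yaf2wt (n = 2) for the brighter one. One Rybp probe set (1421111_at, shared with the pseudogene Rybp-ps) was at 85.8 ± 27.7 with OHT and 2014 ± 239 without it (SD, n = 3 each). The second, 1428219_at, went the other way, at 3162 ± 332 with OHT and 242 ± 82.4 without it, in every clone. The labels do not say where these probe sets lie relative to the altered part of Rybp. Embryonic stem cell markers were present, with 0 of 15 measured markers dim in both OHT groups.

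Arrays with and without OHT were compared over the 3 clones, to see how the members stood after the treatment against Rybp. The average OHT difference was above 0 for all 9 member probe sets, and 5 of them were higher with OHT in every clone: those of Dppa3, Calcoco2, Ubtfl1 and AF067063, and Arg2 1418847_at. Over all probe sets 15.0% were higher in every clone. The OHT+ and OHT- arrays did not overlap for 3 members (Calcoco2, Arg2 1418847_at and Ubtfl1), against a background of 6.13% of probe sets with every OHT+ array above every OHT- array. The reverse order was seen in 0 members and 6.4% of all probe sets. The members had been picked with earlier results of these arrays known, so these counts are a description. In limma with an intensity trend and no clone term, adjusted over 45037 probe sets, 63 (0.14%) passed and 0 of the 9 member probe sets did. An unadjusted p under 0.05 was found for 6 member probe sets, with each Arg2 probe set counted, and for 7.99% of all probe sets. Without the trend 0 probe sets passed, although 2956 had an unadjusted p under 0.05. When the dimmest 40% were left out, 0.333% of the rest passed, 0 of them members. With the clone as a block, which sets each OHT+ array against its own clone, 101 (0.224%) passed. Among these was 1 member probe set, that of Dppa3. Dppa3 and Calcoco2 also passed in some settings that left out a clone, given with each gene below. The 63 became 14 without the Yaf2wt OHT+ array, 17 without the Yaf2wt OHT- array, 21 and 17 without the Yaf2kd OHT+ arrays, and 18, 205 and 293 without clones 3031, 3086 and 3087. The median difference was 0.94 (log2) over the 9 member probe sets and -0.0073 over all probe sets. Every member probe set above that median was dim without OHT. Those above the dim limit on every array were at 0.61 (Dppa3), 0.94 (Calcoco2) and 0.25 (Khdc3).

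**Figure D1:**
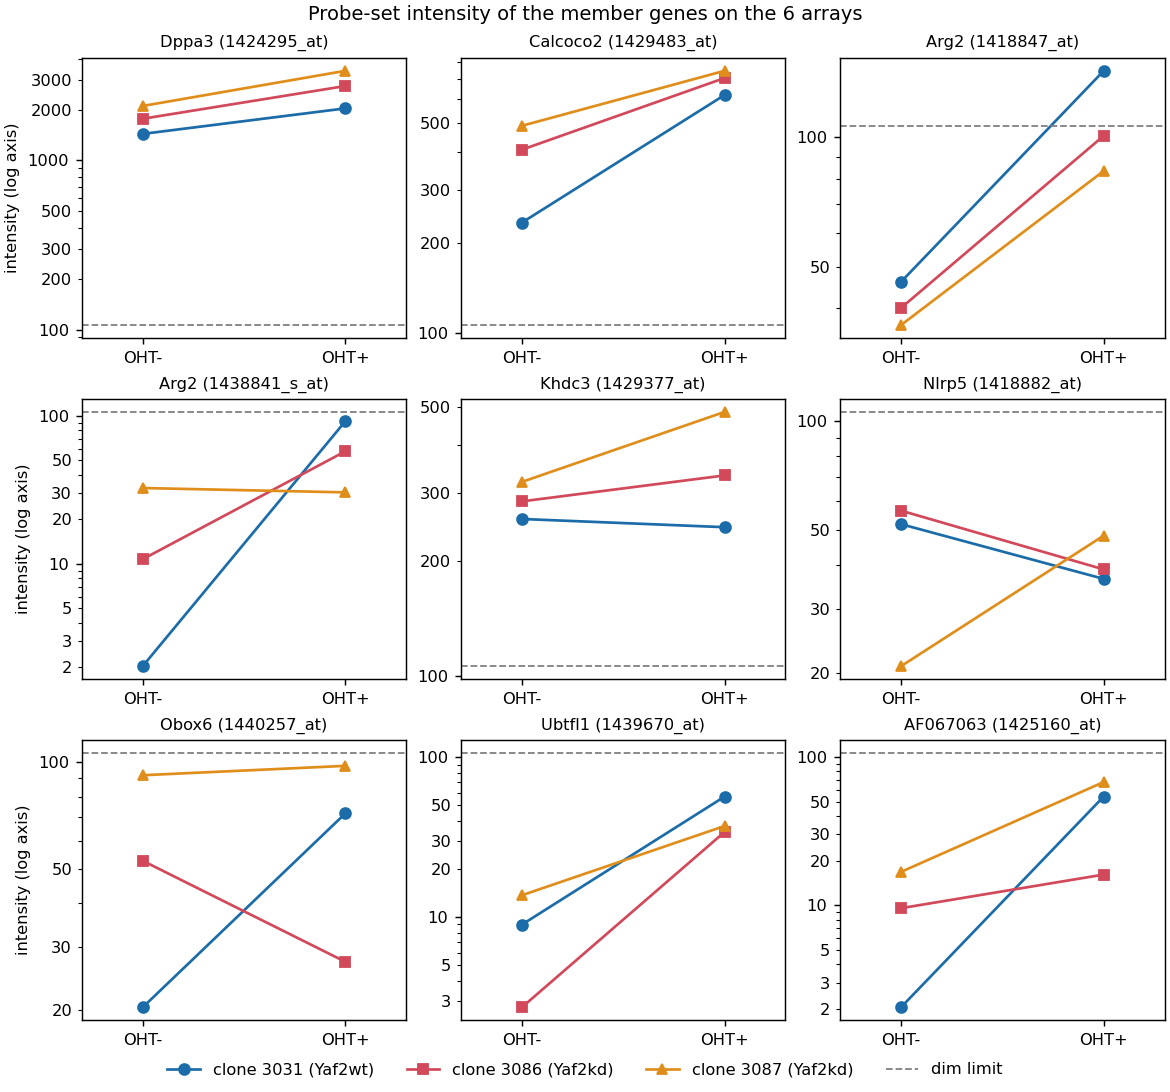
Intensity of the 9 member probe sets on the 6 arrays (log vertical axes, which differ between panels), with a line from the OHT- to the OHT+ array of each clone and a dashed line at the dim limit of 106. The lines for Dppa3 and Calcoco2 all rise and lie above the limit, whereas every point of Nlrp5, Obox6, Ubtfl1, AF067063 and Arg2 1438841_s_at lies under it.

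Signal fell into 3 classes. Dppa3, Calcoco2 and Khdc3 (3 probe sets) stood above the dim limit on every array. Arg2 1418847_at was dim without OHT, and with OHT its geometric mean of 106.4 lay just above the limit of 106.2, with 2 of 3 arrays under it. The other 5 probe sets were dim with and without OHT, on all 6 arrays each, so the sizes of their differences are uncertain.

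Dppa3 (also Stella or PGC7) encodes a maternal-effect protein that protects the maternal genome from loss of DNA methylation after fertilization. Its intensity was 2033 with OHT and 1436 without in clone 3031, 2757 and 1765 in clone 3086, and 3391 and 2101 in clone 3087. The arrays with and without OHT overlap, since the clones start from different levels: without OHT the highest clone was 1.46-fold above the lowest. Within a clone the OHT+ array was higher each time, by 1.42-fold, 1.56-fold and 1.61-fold. The OHT difference was thus 0.61 ± 0.098 (log2, SD over 3 clones), the smallest SD among the 9 member probe sets. In the limma fit with a trend the difference was 0.61 ± 0.11 (SE; 95% interval 0.36 to 0.87), with an unadjusted p of 3.33e-04 and an adjusted p of 0.120, which did not pass. With the clone as a block, which sets each OHT+ array against its own clone, Dppa3 rose with an adjusted p of 0.0264, and 0.224% of all probe sets passed. Dppa3 also passed without clone 3086 (adjusted p 0.0163) and without clone 3087 (0.0130), in limma fits with 1 residual degree of freedom where 0.455% and 0.651% of all probe sets passed. It did not pass without clone 3031 (0.612), nor did any other member, with 0.04% of all probe sets passing. By unadjusted p it ranked 125 of 45037 probe sets.

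Calcoco2 encodes the selective autophagy receptor NDP52. It was at 620.2 with OHT and 233 without in clone 3031, at 706 and 408 in clone 3086, and at 747 and 489.5 in clone 3087. Every OHT+ array lay above every OHT- array. The OHT+ arrays were close together, with a highest-to-lowest ratio of 1.20, whereas the OHT- arrays spread over 2.10-fold with the Yaf2wt array lowest. The increase was therefore 2.66-fold in the Yaf2wt clone and 1.73-fold and 1.53-fold in the Yaf2kd clones. Over the clones limma gave 0.94 ± 0.17 (log2, SE; 95% interval 0.55 to 1.32), unadjusted p 3.25e-04 and adjusted p 0.120, which did not pass. Adding the clone to the model gave an adjusted p of 0.0818. It was 0.707 without clone 3031, and Calcoco2 passed without clone 3086 (0.0193) and without clone 3087 (0.00361).

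Arg2 encodes the mitochondrial arginase, which splits arginine into ornithine and urea. Its probe set 1418847_at was at 143 with OHT and 46.0 without in clone 3031, at 101 and 40.03 in clone 3086, and at 83.5 and 36.5 in clone 3087. The arrays with OHT lay apart from those without, which spanned 1.26-fold, and the within-clone ratios were 3.11, 2.52 and 2.29. Since 5 of the 6 arrays lay under the dim limit, the size of these ratios is uncertain. Limma gave 1.39 ± 0.38 (log2, SE) with an adjusted p of 0.340 and did not call it, and a pseudocount of 32 brought the value to 0.93. The second Arg2 probe set, 1438841_s_at, was at 92.1 with OHT and 2.03 without in clone 3031, 57.6 and 10.7 in clone 3086, and 30.4 and 32.5 in clone 3087. In clone 3087 it did not follow the first probe set, and the groups overlap. Its difference was 2.61 ± 0.97 (log2, SE; adjusted p 0.540), 0.96 with a pseudocount of 32 added before the logarithm, 1.16 without either Yaf2wt array and 3.96 without clone 3087. The suffix _s_at marks probes shared by several transcripts; it is the 1 member probe set with a suffix other than _at.

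**Figure D2:**
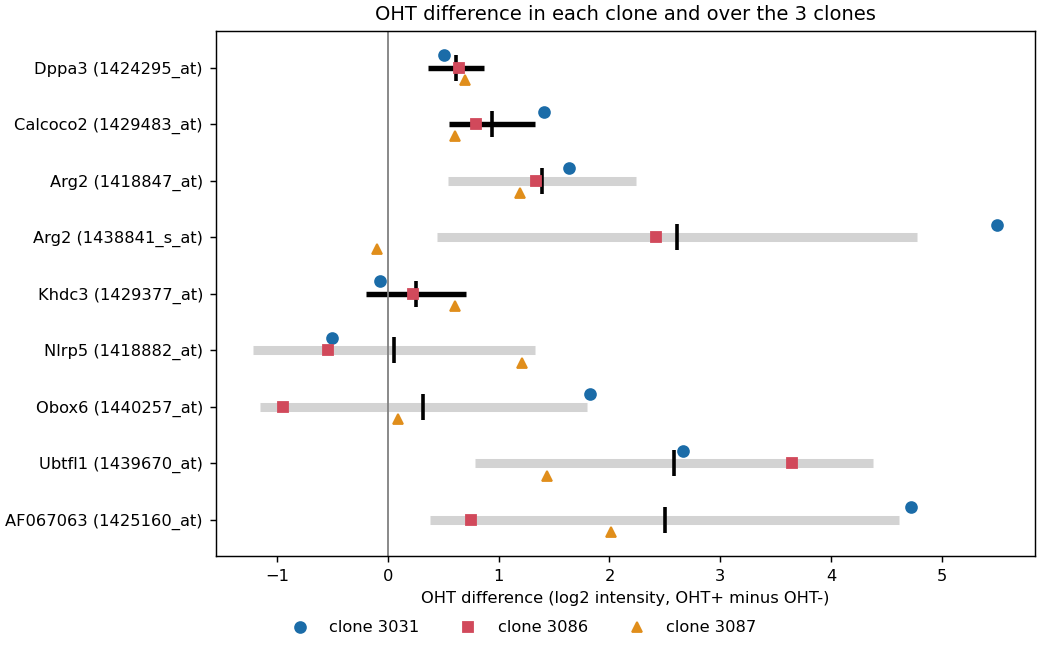
OHT difference (log2 intensity, OHT+ minus OHT-) of the 9 member probe sets: coloured points are the 3 clones, vertical ticks the limma estimates, and horizontal bars their 95% intervals (black above the dim limit without OHT, grey for dim). The 3 clones of Dppa3 lie between 0.50 and 0.69, whereas those of Arg2 1438841_s_at run from -0.097 to 5.50.

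Khdc3 (Filia) and Nlrp5 (Mater) encode subunits of the subcortical maternal complex, a protein assembly under the surface of the oocyte and early embryo. Khdc3 was at 244 with OHT and 256 without in clone 3031, at 333 and 285 in clone 3086, and at 487 and 320.1 in clone 3087. It was thus close to level in the Yaf2wt clone and higher with OHT in both Yaf2kd clones, and the arrays overlap. Limma gave 0.25 ± 0.20 (log2, SE; 95% interval -0.20 to 0.70), adjusted p 0.800. The value was 0.050 without the OHT+ array of clone 3087, 0.16 without the OHT- array of clone 3086 and 0.41 without either Yaf2wt array. Nlrp5 was dim throughout, at 36.5 with OHT and 51.8 without in clone 3031, 38.8 and 56.5 in clone 3086, and 48.1 and 20.9 in clone 3087. Its direction differed between clones, and limma gave 0.053 ± 0.57 (SE; 95% interval -1.22 to 1.33), adjusted p 0.990; the sign turned to -0.0044 with the pseudocount. The interval of Nlrp5 leaves room for a change of more than 2-fold either way.

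Another 4 genes of that complex from the oocyte list, named for their place in the complex after their values were known, gave 0 of 4 calls in limma. Ooep was at 4229 ± 299 with OHT and 3407 ± 496 without (SD, n = 3 each), a difference of 0.32 ± 0.12 (log2, SE; adjusted p 0.538). Tle6, of the Groucho co-repressor family, differed by 0.25 ± 0.16 and Padi6, a peptidylarginine deiminase family member, by 0.56 ± 0.31 (adjusted p 0.746 and 0.699). Ooep, Tle6 and Padi6 were higher with OHT in all 3 clones, as were 16.8% of all genes. Padi6 differed by 1.23, 0.44 and 0.012 in clones 3031, 3086 and 3087, so it was level in the last. Zbed3 was lower in all 3 clones, at -0.26 ± 0.18 (adjusted p 0.770), but close to level in clone 3031 (-0.017). Padi6 was dim without OHT. Nlrp4f, a paralogue of Nlrp5 in the same list and not among these 4, was mixed. It differed by -0.73, 0.30 and -0.35 in clones 3031, 3086 and 3087 (limma -0.26 ± 0.28, adjusted p 0.865) and was not dim.

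Ubtfl1 (also Hmgpi) encodes an HMG-box protein of the preimplantation embryo. It was at 56.7 with OHT and 8.96 without in clone 3031, at 34.1 and 2.72 in clone 3086, and at 37.1 and 13.7 in clone 3087. The groups do not overlap, yet all 6 arrays lay under the dim limit. Limma gave 2.58 ± 0.80 (log2, SE), adjusted p 0.435, and the pseudocount of 32 brought the difference down to 0.88. Obox6, an oocyte-specific homeobox gene, was at 71.7 with OHT and 20.3 without in clone 3031, 27.3 and 52.7 in clone 3086, and 97.7 and 91.9 in clone 3087. It went up in one clone, down in another and hardly moved in the third (0.32 ± 0.66, log2, SE, adjusted p 0.936), and the difference was -0.43 without clone 3031.

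AF067063, a gene named only by its cDNA accession, was at 54.1 with OHT and 2.05 without in clone 3031, at 16.1 and 9.54 in clone 3086, and at 67.7 and 16.8 in clone 3087. It was higher with OHT in each clone, but the groups overlap by the 16.1 of clone 3086 with OHT and the 16.8 of clone 3087 without it. Limma gave 2.50 ± 0.95 (log2, SE; adjusted p 0.553), 0.86 with the pseudocount and 1.38 without either Yaf2wt array. The similarly named AF067061 rose, with 902 against 70.9, 256 against 11.9 and 395 against 38.6 in the same clones (3.82 ± 0.43, log2, SE, adjusted p 0.0104 by limma). It was not called without the trend, nor without either Yaf2wt array, either Yaf2kd OHT+ array or clone 3031. Its probe set carries the suffix _x_at, which marks probes that can bind other transcripts too, and whether the AF067061 and AF067063 probe sets bind each other's transcripts was not tested. The reference also lists pseudogenes named after Dppa3, Nlrp5 and Obox6 (Dppa3-ps, Nlrp5-ps and Obox6-ps1), and binding of their transcripts was not tested either.

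Stretches upstream of the start were at hand for 3 members, Nlrp5, Ubtfl1 and Khdc3, in the RefSeq table (GRCm38.p6). They were searched for the letters bound by partners of the Rybp-containing PRC1.6 complex, namely CACGTG, the E-box, which reads the same on both strands, and GCGGGA of the E2F type with its reverse complement TCCCGC. In the 250 bases before each of 32851 listed starts, 6.02% held CACGTG and 16.9% held GCGGGA or TCCCGC, and the median count of CG dinucleotides was 6. Of the 4 member windows, 1 held a match: the upstream start of Nlrp5, at chr7:23385639-23385888 on the plus strand, with GCGGGA beginning 174 bases before the start and 7 CG. The window of Ubtfl1, at chr9:18404168-18404417 on the plus strand, had no match and 0 CG, as had that of Khdc3, and the downstream start of Nlrp5 had no match and 1 CG. The Nlrp5 window is shown as the one with a match. The Ubtfl1 window is that of the 1 member, among those with a window, whose OHT+ and OHT- arrays do not overlap. Capitals mark the match.
Nlrp5: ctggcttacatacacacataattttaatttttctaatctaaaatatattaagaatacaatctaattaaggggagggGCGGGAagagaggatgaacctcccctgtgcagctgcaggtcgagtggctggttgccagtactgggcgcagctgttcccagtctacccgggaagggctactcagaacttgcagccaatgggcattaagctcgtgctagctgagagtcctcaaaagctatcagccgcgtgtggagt
Ubtfl1: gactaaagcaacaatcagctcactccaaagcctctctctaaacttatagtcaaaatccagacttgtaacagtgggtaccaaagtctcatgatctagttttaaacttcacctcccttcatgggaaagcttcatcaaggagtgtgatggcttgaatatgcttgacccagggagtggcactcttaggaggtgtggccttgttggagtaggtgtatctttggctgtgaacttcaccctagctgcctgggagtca

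A match is a string of letters in the reference and shows no binding. The OHT difference was 0.053 (log2) for Nlrp5 with the match and 2.58 for Ubtfl1 without it, both dim.

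The Yaf2 comparison asks how the Yaf2kd cells differ from the Yaf2wt cells with OHT taken into account. Dppa3, Calcoco2 and Khdc3 were higher in both Yaf2kd clones than in the Yaf2wt clone at the same treatment, with and without OHT, and Arg2 1418847_at was lower in both. These are 3 and 1 of 9 member probe sets, against 15.0% and 14.2% of all probe sets for the 2 directions, and the other 5 were mixed. Limma gave 0.51 ± 0.12 for Dppa3 (log2, SE; adjusted p 0.316), 0.58 ± 0.18 for Calcoco2 (0.422), 0.48 ± 0.21 for Khdc3 (0.556) and -0.45 ± 0.40 for Arg2 1418847_at (0.778). The Yaf2wt arrays moved these values most when left out. Calcoco2 was at 0.94 without the Yaf2wt OHT+ array and 0.23 without the Yaf2wt OHT- array, Khdc3 at 0.24 and 0.72, and Arg2 1418847_at at -0.27 and -0.64. For Khdc3 every Yaf2kd array, from 285 to 487, lay above both Yaf2wt arrays at 244 and 256, as in 9.16% of all probe sets. Limma called 0 of 45037 probe sets here (0.0%), with 4032 at an unadjusted p under 0.05, 3 of them member probe sets: Dppa3, Calcoco2 and Khdc3. Without the first Yaf2kd OHT- array 8 probe sets passed, 0 of them members.

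The difference of the OHT effects asks whether OHT acts differently in Yaf2kd and Yaf2wt cells. Limma called 0 of 45037 probe sets (0.0%; 1077 at an unadjusted p under 0.05). The single Yaf2wt array of each treatment takes its spread from the Yaf2kd groups in this fit, which is an assumption. The OHT effect in Yaf2kd minus that in Yaf2wt was 0.17 ± 0.26 for Dppa3 (log2, SE; 95% interval -0.45 to 0.78), -0.71 ± 0.32 for Calcoco2 (-1.46 to 0.037) and 0.49 ± 0.44 for Khdc3 (-0.53 to 1.51). Leaving out 1 Yaf2kd array gave between 0.016 and 0.31 for Dppa3 and between 0.21 and 0.76 for Khdc3. Among the members Arg2 1438841_s_at was the 1 with an unadjusted p under 0.05, at -4.34 ± 1.59, and it is dim throughout. The adjusted p was 1.00 for all 9 member probe sets.

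Genes of the same stages were taken from lists of named genes, each read by its brightest probe set and without the members. The lists were chosen with earlier results of these data known, so their counts of calls are a description. In the same limma fit 0.214% of all 18193 genes were called. Of 44 measured oocyte and maternal-effect genes, 26 lay above and 18 below 0 with OHT, and their median difference was 0.11 (log2). The 2 called were higher: Ddx4, a germ cell RNA helicase, by 1.48 ± 0.11 (SE), and Dazl, a germ cell RNA-binding protein gene, by 1.59 ± 0.14 (limma adjusted p 6.0e-04 and 0.00253). Dazl was not called without either Yaf2wt array or without clone 3031, and neither gene without the trend. Among the genes of this list that were not dim in both groups and had the same sign in every clone, the next in size were Figla and Sohlh2, transcription factors of the oocyte, and Tcl1. They were at 1.21, 1.16 and 0.86, with adjusted p of 0.0930, 0.0858 and 0.0715, and did not pass. Sohlh2 passed with the clone as a block. Sohlh2 and Tcl1 passed with 1 row per gene and without clone 3086. All of Figla, Sohlh2 and Tcl1 passed with the dimmest 40% left out and without clone 3087, where the list had 5 calls. Gdf3, which was lower with OHT in every clone, also passed without clone 3086. In the main limma fit it was at -0.49 (log2, adjusted p 0.201) and did not pass.

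Of 32 measured cleavage-stage and zygotic genome activation genes, 21 were higher and 11 lower, with a median of 0.13 (log2), and 4 were called, all higher. These were AF067061, the deubiquitinase gene Usp17la (3.37 ± 0.27, SE), Fbxo15, an F-box gene of undifferentiated stem cells (1.36 ± 0.10), and AU015836 (1.31 ± 0.11). Their limma adjusted p lay between 8.18e-04 and 0.0104, and Usp17la and AF067061 were dim without OHT. Leaving out 1 array gave between 1 and 5 calls in this list: 1 without the Yaf2wt OHT+ array (Fbxo15), 2 without the Yaf2wt OHT- array (Fbxo15 and Usp17la) and 3 without either Yaf2kd OHT+ array. Without the trend 0 were called. Of 23 measured paralogues of the members, 10 were higher and 13 lower, with 17 dim in both groups, and AF067061 was the 1 called. Dppa5a, an RNA-binding protein gene of stem cells, was the 1 other paralogue above the dim limit with the same sign in every clone, at 0.072 ± 0.075 (adjusted p 0.860). Over all genes the median was -0.0036.

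**Figure D3:**
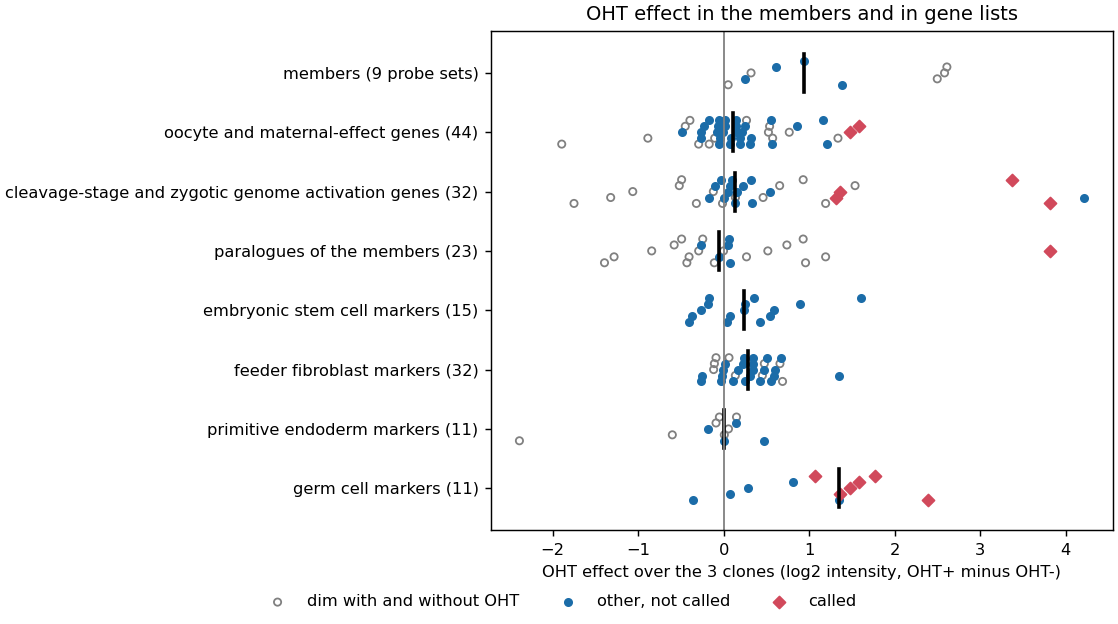
OHT effect (log2 intensity over the 3 clones) of the 9 member probe sets and of the genes in 7 lists, with the number measured in brackets, open grey circles for those dim with and without OHT, red diamonds for those called by limma and black ticks for medians. The median is 0.94 for the members, 0.11 for the oocyte list and 1.35 for the germ cell markers. Every member probe set above the members' median is dim without OHT.

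Markers of other cell types were read beside these results. Their lists too were chosen with earlier results of these data known, so the counts are a description. Germ cell markers, of which 11 were measured, summed to between 14601 and 15257 with OHT and between 7241 and 9158 without it; 10 of 11 were higher, 6 were called by limma (Ddx4 and Dazl belong to the oocyte list too; 3 without the Yaf2wt OHT+ array or either Yaf2kd OHT+ array, and 0 without the trend) and 0 were dim in both groups. Feeder fibroblast markers summed to between 34314 and 41378 with OHT and between 33567 and 40665 without. These sums are weighted to the brightest markers, such as Fn1, with means of 9962 with OHT and 10243 without. Of 32 feeder markers 24 were higher, with 0 called, 9 dim in both groups and a median of 0.28 (log2). In all 3 clones 14 of the 32 were higher and 1 was lower, against 16.8% of all genes higher. Primitive endoderm markers were higher in 6 of 11, with 0 called and 7 dim in both groups. Embryonic stem cell markers were higher with OHT in all 3 clones for 10 of 15, against 16.8% of all genes. Another 4 of the 15 (Utf1, Lin28a, Sall4 and L1td1) were lower in all 3 clones, as were 3204 of 18193 genes. The list was thus split in direction, with a median of 0.24 (log2) and 0 called. In it 2 were called without clone 3086 (Klf4 and Nanog) and 2 without clone 3087 (Klf4 and Tbx3). None of these markers was listed at 0, but the lowest value on any array was 0.140, so this does not show detection. The part of such cells in the members' differences was not tested. In bulk RNA fewer cells of a type and less RNA per cell cannot be told apart.

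The genes most like each brighter member over the 6 arrays were ranked by Pearson's r of log2 intensity among 10915 other genes above the dim limit. Dppa3 was followed most closely by Faap24 (0.996), S100a10 (0.995) and Irf8 (0.992), Calcoco2 by Tmem18 (0.996), Ass1 (0.989) and Zfp248 (0.984), and Khdc3 by Vamp7 (0.993), Gstm3 (0.993) and P4ha1 (0.990). With 6 arrays such values are common: 230 genes were above 0.9 with Dppa3, 97 with Calcoco2 and 222 with Khdc3. Dppa3 and Calcoco2 had an r of 0.90 with each other and Dppa3 and Khdc3 one of 0.86, over 6 arrays that share clones and treatment.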

How the data were processed

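The authors deposited probe-set intensity values of 6 arrays. RMA and Affymetrix Expression Console are named in the submitters' processing notes, with no role or version. The values are linear, run from 0.140 to 45795, and have the same sorted values on all 6 arrays. Their log2 was taken with no pseudocount. Of 45101 probe sets 64 are controls and were left out. Symbols came from the platform annotation, updated through gene IDs (99.4% matched GRCm38.p6).

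The main fit was limma 3.58.1 in R 4.3.3 (lmFit, then eBayes with an intensity trend) with Yaf2 status and OHT as terms, 1 row per probe set, Benjamini-Hochberg adjustment over 45037 and a threshold of 0.05. The difference of the OHT effects used 4 groups. The members and lists were chosen with earlier results of these data known. The labels tie the arrays of a clone together, and in the Yaf2kd clones the paired deviations correlated at 0.157 over probe sets that are not dim (0.031 over all). Nothing says that arrays of a group are independent beyond the clone, so p-values measure the spread between these samples.

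Besides the members, a rule named genes of the oocyte, cleavage-stage and paralogue lists. It took up to 5 called genes of largest difference per list. In lists with fewer than 3 calls it added up to 3 uncalled genes of largest difference. These had 1 sign in all clones and were not dim in both groups. The 3 genes most correlated with each brighter member were named too. Outside this rule, Rybp and Yaf2 were named as a label check. Ooep, Tle6, Padi6, Zbed3, Nlrp4f, Gdf3 and single markers of cell types were also named outside the rule, with their values known. Alternatives were no trend, the dimmest 40% left out, a pseudocount of 32, 1 row per gene, cyclic loess, the clone as a block, a dim limit at the 50th percentile, and leaving out each array or clone.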

Additional observations from a re-analysis of the deposited data

Results flagged for a closer look

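The OHT difference of Khdc3 was below 0 in the Yaf2wt clone (-0.071, log2) and above 0 in both Yaf2kd clones (0.22 and 0.61). The Yaf2wt value is small. For scale, the median SD between the Yaf2kd clones at the same treatment was 0.18 (log2) for probe sets that are not dim. That SD is between clones and does not measure the error of a difference within a clone. The difference of the OHT effects was 0.49 ± 0.44 (SE) with a limma adjusted p of 1.00, so it did not pass. The Yaf2wt value rests on 1 pair of arrays.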

How the results depend on the processing

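OHT called 63 probe sets in the main setting, 0 without the intensity trend, 101 with the clone as a replicate block, between 14 and 53 when 1 array was left out, and 18, 205 and 293 without clones 3031, 3086 and 3087. Of the member probe sets 0 were called, against 1 with the clone as a block (Dppa3) and 2 without clone 3086 and 2 without clone 3087 (Dppa3 and Calcoco2 each time). The block changed no other member call. The Yaf2 effect had 0 calls and between 0 and 8 when 1 array was left out. The cause of these shifts was not tested; the OHT fits without clone 3086 or clone 3087 have 1 residual degree of freedom, and that without clone 3031 has 2.

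Signs turned only for probe sets that are dim and not called. The OHT effect (log2) of Nlrp5 was -0.0044 with the pseudocount, -0.52 without clone 3087 and between -0.44 and 0.38 leaving out 1 array. That of Obox6 was -0.43 without clone 3031 and between -0.43 and 1.06 leaving out 1 array. Leaving out 1 array, the Yaf2 effect lay between -0.59 and 0.24 for Nlrp5, -0.71 and 2.63 for AF067063, -1.14 and 3.20 for Arg2 1438841_s_at (-0.053 with the pseudocount) and -0.47 and 1.78 for Obox6, and the difference of the OHT effects of Ubtfl1 between -1.28 and 1.05. Of the remaining fitted values of single members, 287 kept their direction and side of the threshold, and 5, of Dppa3 and Calcoco2, passed it. The difference of the OHT effects could not be estimated without a Yaf2wt array. At the 50th percentile 6 member probe sets counted as dim in both groups, against 5. Low signal over background limits what can be read from these.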
